A study of Mus musculus with 24 samples.

Results

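Imprinted growth genes are genes expressed from only 1 parental copy that set the pace of fetal growth. The set was chosen by gene symbol and lists 8 genes, H19, Dlk1, Peg3, Cdkn1c, Mest, Grb10, Plagl1 and Meg3. Of these, 6 matched a row of the table of 21965 mouse genes, all protein-coding, and all 6 had enough counts to be tested. The long non-coding RNA genes H19 and Meg3 matched no row by symbol or identifier and were not analysed here. RNA sequencing covered 24 libraries of mouse gastrocnemius, a calf muscle, 4 in each of 6 groups. One group was the control, and the others were sampled at day 1, 3, 5, 7 or 14 following denervation, in which a muscle loses its motor nerve. The sources used here give no strain, genotype, sex or age and do not say how denervation was done or what the control muscle underwent. Nothing says that replicates were different animals, so a p-value here reflects only how far these libraries spread, and that spread may be technical.

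In the embryo these genes work as a balance. Several paternally expressed genes, such as Dlk1, Peg3 and Mest, are linked to growth or to progenitor cells. Maternally expressed genes such as Cdkn1c and Grb10 hold growth back, one by stopping the cell cycle and the other by damping insulin and insulin-like growth factor receptors. Most of the set is switched down after birth. In adult muscle the genes are known mainly from satellite cells, the stem cells of the fibre, from connective tissue and vessel cells, and from regeneration.

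Imprinting is kept by methylation of CpG dinucleotides, often close to a gene's start, so the start regions of 4 members are shown with each CpG in capitals. These 4 (Peg3, Mest, Grb10 and Plagl1) are shown because each fell at day 3 and rose at days 7 and 14 in the results below. Each is 300 bases, from 250 before to 50 after a start in RefSeq (build GRCm38.p6), written 5′ to 3′ on the strand of the gene. Where RefSeq lists several starts (3 for Mest, 2 for Grb10), the window with the most CpG is printed. The Peg3 window lies at chr7:6730370-6730669 (minus strand), the Mest window at chr6:30737800-30738099 (plus), the Grb10 window at chr11:12037371-12037670 (minus) and the Plagl1 window at chr10:13090582-13090881 (plus).
Peg3: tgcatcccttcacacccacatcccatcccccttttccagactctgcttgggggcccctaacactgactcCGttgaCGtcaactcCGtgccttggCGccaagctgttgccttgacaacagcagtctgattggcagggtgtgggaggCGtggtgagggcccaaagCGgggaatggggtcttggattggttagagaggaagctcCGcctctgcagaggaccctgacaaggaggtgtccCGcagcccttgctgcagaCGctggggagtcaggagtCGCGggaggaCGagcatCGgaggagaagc
Mest: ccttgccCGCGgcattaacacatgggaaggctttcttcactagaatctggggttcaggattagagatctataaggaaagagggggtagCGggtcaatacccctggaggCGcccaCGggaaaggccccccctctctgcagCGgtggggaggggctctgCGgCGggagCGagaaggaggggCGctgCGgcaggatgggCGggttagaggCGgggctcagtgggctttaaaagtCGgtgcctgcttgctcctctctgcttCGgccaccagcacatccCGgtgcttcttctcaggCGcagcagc
Grb10: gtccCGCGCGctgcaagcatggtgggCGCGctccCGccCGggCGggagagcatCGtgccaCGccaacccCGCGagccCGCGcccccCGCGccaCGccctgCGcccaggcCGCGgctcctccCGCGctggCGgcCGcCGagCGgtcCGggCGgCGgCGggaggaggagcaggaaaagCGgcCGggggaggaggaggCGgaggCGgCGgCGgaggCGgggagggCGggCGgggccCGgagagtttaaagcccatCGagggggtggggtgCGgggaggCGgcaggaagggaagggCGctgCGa
Plagl1: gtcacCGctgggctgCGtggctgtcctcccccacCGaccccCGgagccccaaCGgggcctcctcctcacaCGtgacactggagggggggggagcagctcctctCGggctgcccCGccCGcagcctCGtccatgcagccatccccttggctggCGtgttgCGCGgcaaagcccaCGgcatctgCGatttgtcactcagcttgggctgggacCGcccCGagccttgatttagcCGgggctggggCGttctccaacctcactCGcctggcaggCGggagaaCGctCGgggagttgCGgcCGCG
The Grb10 window held 45 CpG and was 80% G or C, and 98.1% of the 32851 mouse windows of that length held fewer CpG. Plagl1 had 26 CpG, Mest 17, Peg3 13 and Dlk1, whose window is not printed, 9, against a median of 7 over all windows. CANNTG, the E-box that myogenic bHLH factors can bind and that reads the same on both strands, was found 2 times in the Plagl1 window and 1 time in the Mest window. It was not found in the Peg3, Grb10 and Dlk1 windows, and 72.3% of all windows held at least 1. The E-box form CAGCTG was in none of the 5 windows and in 16.3% of all windows. The windows of Mest and Grb10 were picked for CpG among their starts, while the set of all windows was not. Methylation was not measured in this series, and the table does not separate the parental copies. Whether a printed window lies in the region that holds the imprint was not tested.

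Library totals ran from 16082846 to 20696900 expected counts, and 14247 genes passed the filter on low counts. Levels are given as CPM, counts relative to the TMM-scaled library size, and TPM is used only to compare genes with each other because it is per length. A gene is said to have risen or fallen where its edgeR quasi-likelihood p, adjusted over the 14247 genes by Benjamini-Hochberg, was below 0.05. Log2 fold changes are shown ± SE. With library totals alone in place of TMM, the median log2 change of all genes was 0.61, 0.34, 0.67, 0.81 and 0.78 at days 1, 3, 5, 7 and 14, so every change is relative to the bulk of genes. It also moved the genes called higher and lower from 5428 and 5157 to 10051 and 1899 at day 1, from 4910 and 5087 to 7822 and 2595 at day 3, and from 5482 and 5103 to 10292 and 1680 at day 5. At day 7 they moved from 5722 and 5229 to 10601 and 1732, and at day 14 from 5578 and 5027 to 10605 and 1670. The labelled tissue was checked because the extraction protocol names dorsal root ganglion neurons. The 8 myofibre markers summed to between 41413 and 226641 CPM per library, all 8 above 0 in every group. The 10 sensory neuron markers summed to between 1.84 and 8.91 CPM, and of these Scn10a had no count in control and at days 1, 5 and 14.

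Every one of the 6 differed between groups in a test over all 6 groups at once (edgeR adjusted p from 1.4e-46 for Peg3 to 1.5e-18 for Dlk1), as did 96.7% of all tested genes. The 6 genes followed different courses, and day 3 was the day at which they shared a direction. Mest, Grb10 and Plagl1 were above control at days 5, 7 and 14, Peg3 at days 7 and 14, and Dlk1 at day 5. At day 1 Plagl1 rose and 4 of the 6 fell, where 38.1% of all tested genes rose and 36.2% fell, although Grb10, 1 of the 4, was above control with library totals alone. At day 3 all 6 fell, where 35.7% of tested genes fell, and with library totals alone Plagl1 did not pass. At day 5 4 of the 6 rose and Cdkn1c fell, where 38.5% rose and 35.8% fell. At day 7 4 rose and 2 fell, against 40.2% and 36.7% of tested genes, and at day 14 again 4 rose and 2 fell, against 39.2% and 35.3%. The median log2 change of the 6 was −0.87, −0.98, 0.28, 0.59 and 0.44 at days 1, 3, 5, 7 and 14, while that of all tested genes lay between −0.03 and 0.06. With library totals alone the medians of the 6 were −0.29, −0.61, 0.93, 1.35 and 1.15. Peg3, Mest, Grb10 and Plagl1 were the 4 that stood above control at days 7 and 14, and Dlk1 and Cdkn1c were the 2 below it, although Cdkn1c stood above control at day 7 with library totals alone. All days share the same 4 control libraries. Each day is a single group, so the day and any other difference between groups, such as a batch, cannot be told apart. In whole muscle, fewer cells of a type and less RNA per cell cannot be told apart.

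**Figure D1:**
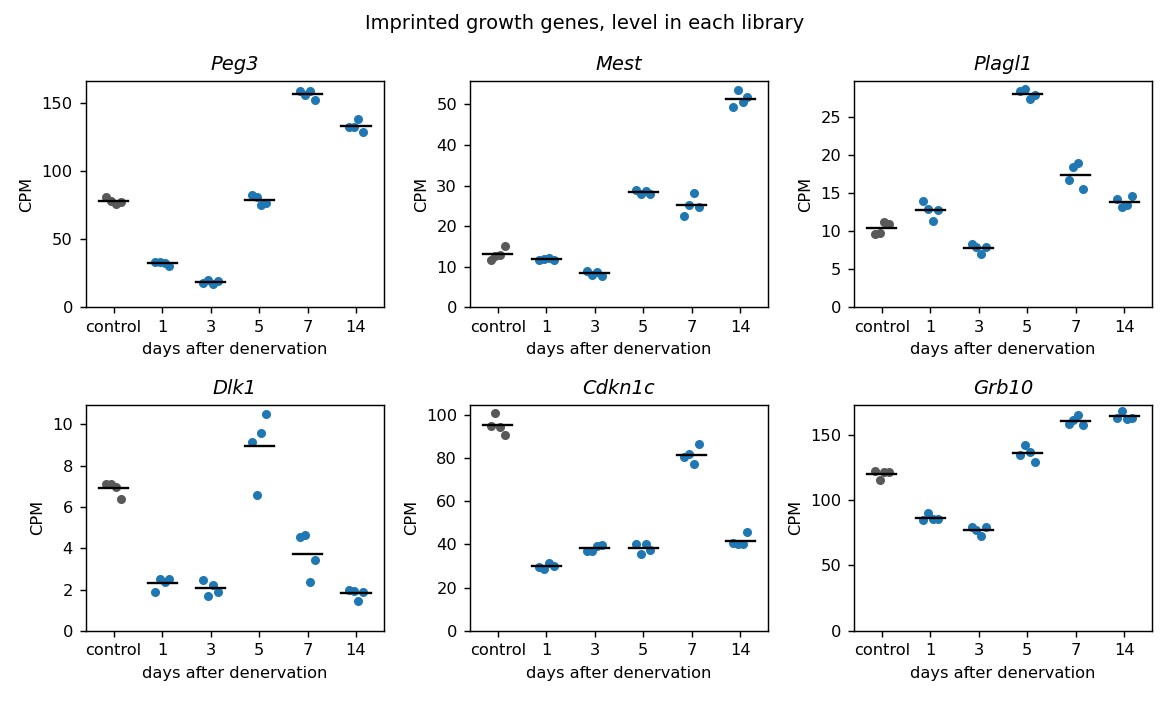
Level of 6 imprinted growth genes in each library, in CPM on an axis that starts at 0, for control and each day after denervation. Points are libraries (4 per group) and bars are group means. Peg3 falls to 18.5 CPM at day 3 and stands at 157 CPM at day 7, Mest is highest at day 14, Plagl1 and Dlk1 are highest at day 5, and Cdkn1c has a separate high point at day 7.

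Peg3 encodes a zinc finger transcription factor made from the paternal copy, known in stem and progenitor cells of many tissues (ENSMUSG00000002265, chromosome 7, 6703892 to 6730431, minus strand, GRCm38). It swung farthest of the 6 in fold, 8.47-fold between its lowest and highest group mean. The control libraries held 81, 78.2, 75.4 and 77.4 CPM. At day 1 they held 33.1, 33.1, 32.1 and 30.3 CPM, and at day 3 17.7, 19.7, 17.3 and 19.3 CPM. Every library of these 2 days was below every control library, and day 3 was below day 1. At day 5 the values were 82.7, 80.6, 75.2 and 76.7 CPM, overlapping control. At day 7 they reached 159, 156, 159 and 152 CPM, and at day 14 they were 132, 132, 138 and 129 CPM, both clear of all earlier groups and of each other. Against control, Peg3 fell by 1.28 ± 0.043 at day 1 and by 2.07 ± 0.049 at day 3 on the log2 scale. It rose 2.01-fold at day 7 (log2 1.01 ± 0.037) and 1.7-fold at day 14 (log2 0.77 ± 0.037), each of these 4 with an edgeR adjusted p of at most 2.8e-23. At day 5 it did not pass (log2 0.02 ± 0.039, adjusted p = 0.73), and with library totals alone the value was 0.66 (adjusted p = 2.7e-20). The steps between days were tested directly: a 4.25-fold rise from day 3 to day 5, a 1.99-fold rise from day 5 to day 7 and a 1.18-fold fall from day 7 to day 14 (edgeR adjusted p at most 3.4e-08).

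Plagl1, also called Zac1, encodes a paternally expressed zinc finger factor that can slow the cell cycle and that acts on other imprinted genes in the embryo (ENSMUSG00000019817, chromosome 10, 13060504 to 13131694, plus strand). It was the lowest of the 6 in control per length, at 2.81 ± 0.895 TPM (SD, n = 4). Control libraries held 9.59, 9.75, 11.2 and 10.9 CPM, and day 5 libraries held 28.5, 28.7, 27.4 and 27.9 CPM. Day 5 was thus clear of every other group, the next being day 7 at 15.5 to 19 CPM. Day 1 ran from 11.3 to 14 CPM, day 14 from 13.2 to 14.7 CPM and day 3 from 6.94 to 8.27 CPM, of which day 3 lay below all control libraries. Plagl1 rose 1.23-fold at day 1 (log2 0.30 ± 0.091, adjusted p = 0.0032), 2.7-fold at day 5 (log2 1.44 ± 0.084), 1.68-fold at day 7 and 1.33-fold at day 14 (log2 0.42 ± 0.089, edgeR adjusted p = 5.8e-05). It fell at day 3 by 0.42 ± 0.099 (log2, adjusted p = 0.00021), a value of −0.05 with library totals alone (adjusted p = 0.68).

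Cdkn1c encodes p57, an inhibitor of cyclin-dependent kinases made from the maternal copy, which lets cells leave the cell cycle (ENSMUSG00000037664, chromosome 7, 143458339 to 143461050, minus strand). Its level went down at once and came back at a single time. Control libraries held 94.8, 101, 94.5 and 90.8 CPM. The libraries of day 1 held 29.4, 28.6, 31.2 and 30.1 CPM, those of day 3 ran from 36.8 to 39.5 CPM and those of day 5 from 35.6 to 40.2 CPM. At day 7 the values were 80.3, 81.7, 77.3 and 86.4 CPM, and at day 14 they were 40.7, 40.2, 40.3 and 45.5 CPM. Days 3 and 5 overlapped, as did days 5 and 14, and day 7 was clear of every other group. Cdkn1c fell 3.2-fold at day 1 (log2 −1.68 ± 0.049), 2.5-fold at day 3, 2.49-fold at day 5 and 2.29-fold at day 14 (log2 −1.20 ± 0.047), with edgeR adjusted p-values of at most 8.8e-27. At day 7 it was lower than control by 0.23 ± 0.044 (log2, adjusted p = 1e-05), but with library totals alone it was higher by 0.54 (adjusted p = 2.3e-15). The rise from day 5 to day 7 (2.13-fold, log2 1.09 ± 0.046) and the fall from day 7 to day 14 (1.96-fold, log2 −0.97 ± 0.046) kept their direction under every scaling run.

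Grb10 encodes an adaptor protein that binds activated insulin and IGF1 receptors and weakens their signal, made from the maternal copy in most tissues (ENSMUSG00000020176, chromosome 11, 11930508 to 12038683, minus strand). It had the narrowest range of the 6, 2.13-fold between its lowest and highest group mean. Control libraries ran from 115 to 122 CPM, day 1 from 84.7 to 89.7 CPM and day 3 from 72.8 to 79.6 CPM. Day 5 ran from 129 to 142 CPM, day 7 from 157 to 165 CPM and day 14 from 162 to 168 CPM. Only days 7 and 14 overlapped. Grb10 fell by 0.63 ± 0.035 at day 3 and rose by 0.18 ± 0.033, 0.42 ± 0.032 and 0.46 ± 0.032 at days 5, 7 and 14 (log2, edgeR adjusted p at most 4.4e-06). At day 1 it fell by 0.47 ± 0.034 (log2), but with library totals alone it stood at 0.11 (adjusted p = 0.003). The step from day 3 to day 5 was 1.76-fold upward (log2 0.82 ± 0.033), and days 7 and 14 did not differ by the test (log2 0.04 ± 0.03, adjusted p = 0.34).

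Mest, also called Peg1, encodes an enzyme of the alpha/beta hydrolase fold made from the paternal copy, known from the growing embryo and from expanding fat tissue (ENSMUSG00000051855, chromosome 6, 30723547 to 30748465, plus strand). It showed the largest rise against control of the 6, at day 14. Control libraries held 11.6, 12.6, 12.8 and 15 CPM, and day 1 libraries held 11.6, 11.9, 12.1 and 11.5 CPM, within the control range except for 1 library just under it. Day 3 libraries held 8.89, 7.89, 8.72 and 7.73 CPM, all below control. At day 5 they held 29, 27.8, 28.6 and 27.8 CPM, at day 7 22.6, 25.3, 28.2 and 24.6 CPM, and at day 14 49.3, 53.5, 50.6 and 51.8 CPM. Days 5 and 7 overlapped and day 14 was clear of all others. Mest fell 1.57-fold at day 3 (log2 −0.65 ± 0.091) and rose 2.17-fold at day 5 (log2 1.12 ± 0.076), 1.94-fold at day 7 (log2 0.95 ± 0.076) and 3.95-fold at day 14 (log2 1.98 ± 0.072), with edgeR adjusted p-values of at most 2.5e-08. At day 1 it did not pass (log2 −0.14 ± 0.084, adjusted p = 0.12), and with library totals alone the sign turned (0.44, adjusted p = 7.5e-06). The fall from day 5 to day 7 (log2 −0.17 ± 0.064, edgeR adjusted p = 0.018) did not hold without day 7 replicate 1 (−0.12, adjusted p = 0.12) or with library totals alone (−0.05, adjusted p = 0.51). Mest overlaps Copg2, a coat protein gene on the opposite strand, and without strand, reads of the 2 genes cannot be told apart where they overlap.

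Dlk1 encodes a transmembrane protein of the Notch ligand family, also called Pref-1, that keeps preadipocytes undifferentiated and is linked to muscle growth and regeneration (ENSMUSG00000040856, chromosome 12, 109452823 to 109463336, plus strand). It was the scarcest of the 6 by counts, with 30 to 205 expected counts per library. Control libraries held 7.11, 7.09, 6.99 and 6.39 CPM. Day 1 libraries held 1.89, 2.49, 2.35 and 2.53 CPM, day 3 libraries 2.44, 1.67, 2.23 and 1.89 CPM, and day 14 libraries 1.96, 1.93, 1.45 and 1.89 CPM. These 3 days overlapped each other and lay below all control libraries. At day 5 the libraries held 9.15, 6.57, 9.6 and 10.5 CPM, the highest group and the only one to overlap control. At day 7 they held 4.52, 4.62, 2.35 and 3.42 CPM, below control and reaching into the ranges of days 1 and 3. Dlk1 fell 2.98-fold at day 1 (log2 −1.58 ± 0.18), 3.36-fold at day 3 (log2 −1.75 ± 0.19) and 3.81-fold at day 14 (log2 −1.93 ± 0.19), with edgeR adjusted p-values of at most 1.5e-10. At day 7 it fell by 0.88 ± 0.17 (log2, adjusted p = 9.5e-06), a value of −0.12 with library totals alone (adjusted p = 0.52). Its rise at day 5 (log2 0.38 ± 0.16, adjusted p = 0.027) did not pass without control replicate 4 (0.35, adjusted p = 0.067), day 5 replicate 3 (0.35, adjusted p = 0.066) or day 5 replicate 4 (0.29, adjusted p = 0.12). The steps around day 5 were larger than the difference from control: 4.37-fold up from day 3 (log2 2.13 ± 0.18) and 2.39-fold down to day 7 (log2 −1.26 ± 0.16), with edgeR adjusted p-values of at most 1.6e-09.

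**Figure D2:**
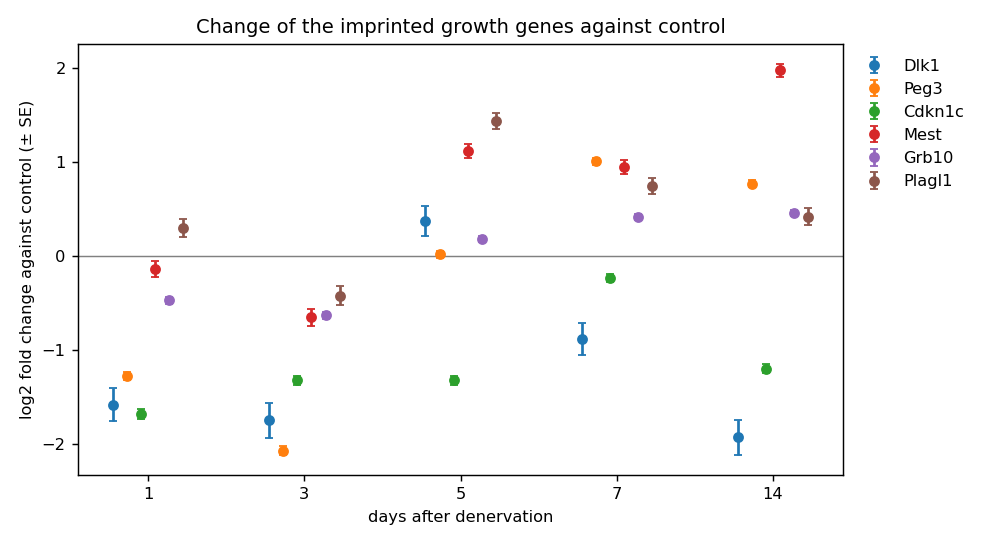
Log2 fold change of each gene against control at each day, with its SE from the edgeR fit over 24 libraries (horizontal axis: days after denervation). All 6 points are below 0 at day 3, Mest reaches 1.98 at day 14, and Dlk1 lies at −1.93 there.

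Day 3 to day 5 was the step at which the set moved most together. In that comparison 5 of the 6 rose, where 38.2% of tested genes rose, and Cdkn1c did not pass (log2 0.01 ± 0.052, adjusted p = 0.92) except with library totals alone, where it rose too (0.28, adjusted p = 5.8e-06). The median of the 6 was 1.81 (log2), and that of all tested genes was −0.01. From day 5 to day 7 the set split, with Peg3, Cdkn1c and Grb10 up and Mest, Plagl1 and Dlk1 down, against 33.8% of tested genes up and 34.4% down. From day 7 to day 14 Mest rose 2.04-fold and 4 of the 6 fell, against 26% up and 25.6% down. From day 1 to day 3 Cdkn1c rose 1.28-fold, 4 fell, and Dlk1 did not pass (log2 −0.17 ± 0.21, adjusted p = 0.47), against 36.1% up and 38% down. With library totals alone the calls over all genes were 3529 up and 7260 down from day 1 to day 3, 7353 up and 3622 down from day 3 to day 5, and 6140 up and 3790 down from day 5 to day 7.

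Per length, the order of the 6 changed over time. In control Cdkn1c led with 70.4 ± 5.27 TPM, followed by Grb10 (28.5 ± 0.68), Peg3 (10.7 ± 0.293), Mest (6.18 ± 0.725), Dlk1 (4.98 ± 0.464) and Plagl1 (SD, n = 4 for each). At day 14 Grb10 led with 66.6 ± 1.17 TPM, then Cdkn1c (53.5 ± 3.84), Mest (41 ± 1.37), Peg3 (31.2 ± 0.992), Plagl1 (6.17 ± 0.814) and Dlk1 (2.28 ± 0.771). Mest thus moved above Peg3 between these groups, and their libraries did not overlap in either.

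For Dlk1 and Plagl1, the deposited TPM and counts did not rank the libraries alike. At day 3, Dlk1 in replicate 2 had the lowest CPM of the group (1.67) and the highest TPM (3.29). Plagl1 in day 1 replicate 2 had 7.5 TPM and 12.9 CPM, while the other 3 libraries of that day had 4.67 to 4.99 TPM and 11.3 to 14 CPM. The gene length implied by the 2 values, relative to control, ran from 0.477 to 1.18 over the 24 libraries for Dlk1 and from 0.615 to 1.03 for Plagl1. For Peg3, Grb10 and Mest it stayed between 0.975 and 1.03, and for Cdkn1c it ran from 0.915 to 1.03. Over all genes with at least 50 counts in every library, the median ratio of the highest to the lowest such length was 1.07. GENCODE M21 lists 10 transcripts for Dlk1 and 25 for Plagl1, and the table gives no value per transcript.

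**Figure D3:**
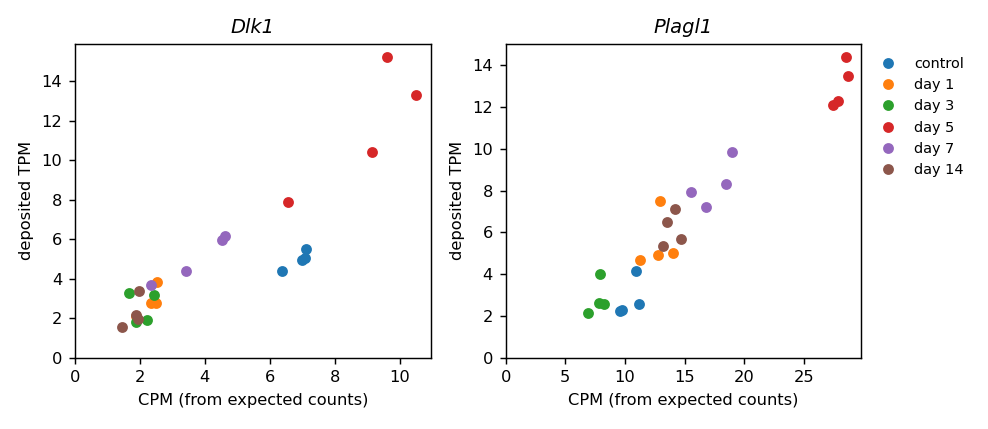
Deposited TPM against CPM computed from the expected counts, for Dlk1 and Plagl1 in each library (colours: control and day of denervation). Libraries of a group with nearly the same CPM are spread in TPM, as for Plagl1 at day 1, where replicate 2 stands at 7.5 TPM.

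Imprinted genes sit in clusters, and the partners of each member were followed through the same fit. Zim1, a zinc finger gene next to Peg3 with 7441 bases between them, was the closest of 11740 genes to Peg3 in its pattern over the 24 libraries. The measure is the root mean square difference of log2 CPM after each gene is centred on its own mean, and it was 0.344. Zim1 stood at 29 ± 2.24 CPM in control, 13.4 ± 0.486 at day 1, 10 ± 0.783 at day 3, 34.5 ± 0.889 at day 5, 47.3 ± 2.21 at day 7 and 36.2 ± 2.22 at day 14 (SD, n = 4). It fell by 1.11 ± 0.069 and 1.54 ± 0.074 at days 1 and 3 and rose by 0.25 ± 0.061, 0.71 ± 0.059 and 0.32 ± 0.061 at days 5, 7 and 14 (log2, edgeR adjusted p at most 0.0003). Usp29, which starts 146 bases from the start of Peg3 on the other strand, so that the Peg3 window printed above reaches both starts, was close to the limit of detection. It had 13 counts over the 4 control libraries and 57 over those of day 7, and it rose at day 7 (log2 1.35 ± 0.56, adjusted p = 0.027).

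Igf2, the fetal growth factor gene that shares a cluster with H19, fell by 1.00 ± 0.047 at day 1 and by 1.09 ± 0.049 at day 3 (log2, edgeR adjusted p at most 1.4e-23). Its libraries ran from 75.4 to 84.8 CPM in control, from 38 to 43.1 CPM at day 1 and from 35 to 38.6 CPM at day 3. Its log2 values were −0.16 at day 5, −0.38 at day 7 and −0.03 at day 14, and with library totals alone they were 0.49, 0.39 and 0.69. Of the Dlk1 and Meg3 cluster, Dio3, the enzyme that inactivates thyroid hormone, rose at every day, while Dlk1 fell at every day except day 5. Dio3 went from 0.357 ± 0.189 CPM in control to 2.85 ± 0.247 CPM at day 1 and 4.89 ± 0.848 CPM at day 7 (log2 3.76 ± 0.3), with log2 changes of 0.96 ± 0.42 at day 3, 1.94 ± 0.36 at day 5 and 2.60 ± 0.34 at day 14, on 17 counts over the control libraries. Between days the 2 genes were both up from day 3 to day 5 (Dio3 0.98 ± 0.29) and both down from day 7 to day 14 (Dio3 −1.16 ± 0.2). From day 5 to day 7 they moved in opposite directions (Dio3 1.82 ± 0.21, Dlk1 −1.26 ± 0.16). From day 1 to day 3 Dio3 fell (−2.03 ± 0.26) and Dlk1 did not pass. Rtl1 of that cluster was below the filter.

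In the cluster of Cdkn1c, Osbpl5, a lipid transfer protein gene, rose 2.71-fold at day 7 and Kcnq1, a potassium channel gene, fell by 0.82 ± 0.22 (log2) at day 1, a call that ended with library totals alone (−0.24, adjusted p = 0.31). Slc22a18 did not pass at any day (log2 0.57 ± 0.39 at day 1, adjusted p = 0.18), but passed at day 1 without control replicate 4 (1.02, adjusted p = 0.039) and with library totals alone (1.15). Phlda2 and Ascl2 were below the filter. Beside Mest, Copg2 rose 2.63-fold at day 14 (log2 1.39 ± 0.061) and Klf14, a transcription factor gene, rose at day 7 (log2 2.03 ± 0.56, adjusted p = 0.0012) on a mean of 0.959 CPM. Ddc, a neighbour of Grb10 that makes amines, rose 5.97-fold at day 14 (log2 2.58 ± 0.25) to 5.76 ± 0.736 CPM.

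**Figure D4:**
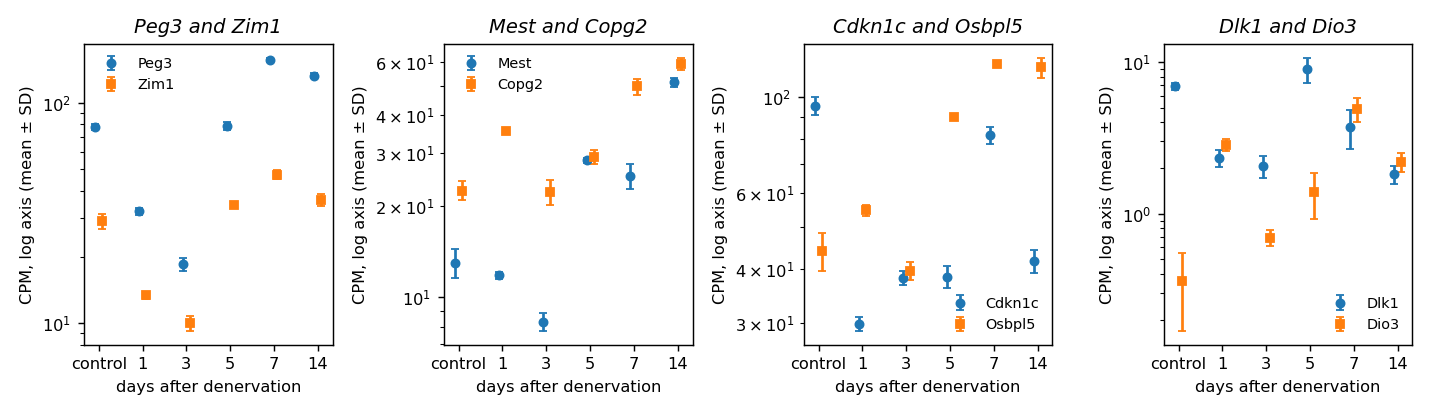
Mean CPM ± SD (4 libraries per group, log axis) of 4 members and a gene of the same imprinted cluster, for control and each day after denervation. Zim1 follows Peg3 down at days 1 and 3 and up to day 7, while Dio3 is at its lowest in control, where Dlk1 is near its highest.

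Over all tested genes, between 34.5% and 40.2% rose and between 35.3% and 36.7% fell against control, depending on the day. These shares are the background for the counts of this list and of those that follow. Of 48 other imprinted genes listed, 35 were tested. At day 1 10 rose and 14 fell, at day 3 8 rose and 17 fell, at day 5 14 rose and 10 fell, at day 7 20 rose and 11 fell and at day 14 18 rose and 9 fell. Their median log2 change was −0.29 at day 3 and 0.27 at day 7, and with library totals alone it was 0.05 and 1.04, where that of all genes was 0.34 and 0.81. The counts up and down were then 22 and 6, 14 and 8, 24 and 4, 30 and 2, and 26 and 3 at days 1, 3, 5, 7 and 14. Among those whose mean CPM over the libraries was at least 1 on the log2 scale, the largest changes were those of Nnat, Dio3, Slc22a3 and Zdbf2. Magel2 was below that limit, with no count in control and 113 counts over the libraries of day 7, at least 22.3-fold higher. Nnat, a membrane protein gene of brain and endocrine cells, rose from 0.229 ± 0.242 to 19.2 ± 1.26 CPM at day 1 (log2 6.35 ± 0.25), on 11 counts over the control libraries. Slc22a3, an organic cation transporter gene, rose 12-fold at day 3 (log2 3.58 ± 0.13), and Zdbf2, a zinc finger gene, rose 9.55-fold at day 14 (log2 3.26 ± 0.14). Among Nnat at day 1, Dio3 at day 7, Slc22a3 at day 3 and Zdbf2 at day 14, the largest edgeR adjusted p was 2.8e-15, that of Dio3.

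Grb10 acts on the receptors of the IGF pathway, and of 18 listed genes of that pathway 16 were tested. Of these 7 rose and 8 fell at day 1, 5 rose and 9 fell at day 3, 7 rose and 7 fell at day 5, 7 rose and 8 fell at day 7, and 7 rose and 7 fell at day 14. With library totals alone the count at day 5 was 12 up and 2 down, and the median log2 change at days 1, 3, 7 and 14 turned from −0.38, −0.36, −0.21 and −0.17 to 0.20, 0.01, 0.55 and 0.54. Igfbp5, a secreted IGF binding protein gene, rose 8.45-fold at day 14 (from 218 to 1842 CPM) and Igfbp2 24-fold (from 0.457 to 11.1 CPM). Igf1 rose 6-fold at day 7 (from 23.4 to 140 CPM). Grb14, the adaptor gene most like Grb10 in role, fell 4.96-fold at day 5 (log2 −2.31 ± 0.16), when Grb10 rose. The edgeR adjusted p-values of these 4 changes were at most 3.2e-17.

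Cdkn1c belongs to the family of CDK inhibitors, and of 11 tested genes for such inhibitors and for G1 regulators 9 rose and 2 fell at days 1 and 7, 6 rose and 4 fell at day 3, 7 rose and 3 fell at day 5, and 7 rose and 2 fell at day 14. With library totals alone 10 rose and 1 fell at days 1, 7 and 14. On that scale 6 rose and 2 fell at day 3, and 9 rose and 1 fell at day 5. Cdkn1a, which encodes p21, rose 5.91-fold at day 7 (from 103 to 606 CPM). Ccnd1, the cyclin D1 gene, rose 5.72-fold and Rb1, the retinoblastoma gene, 7.53-fold at the same day. Cdkn1b, which encodes p27, fell 3.09-fold at day 3 (from 107 to 34.7 CPM, edgeR adjusted p = 6.2e-33). Proliferation genes moved more widely: all 8 rose at days 1, 5 and 7 (median log2 2.84, 1.93 and 2.54), 7 fell at day 3 (median −1.80) and 7 rose at day 14 (median 1.42). Among them Ccnb1 rose 13.6-fold, Top2a 8.34-fold and Aurkb 8.03-fold at day 1, and Ccna2 fell 8.43-fold at day 3.

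Dlk1 is a Notch family protein, and of 13 tested Notch pathway genes 1 rose and 9 fell at day 1, 3 rose and 8 fell at day 3, 3 rose and 9 fell at day 5, 4 rose and 9 fell at day 7, and 2 rose and 8 fell at day 14. With library totals alone 3 rose and 7 fell at day 1, 5 rose and 6 fell at day 3, and 4 rose and 5 fell at day 5. On that scale 7 rose and 4 fell at day 7, and 8 rose and 4 fell at day 14. The ligand gene Dll4 fell 4.46-fold and the receptor gene Notch4 3.76-fold at day 7, and the Notch target genes Hey1 fell 2.76-fold at day 5 and Heyl 2.43-fold at day 1. Myogenic differentiation genes, the setting in which Dlk1 and H19 are studied in regeneration, rose in all 9 cases at days 1, 5, 7 and 14 and 3 rose and 3 fell at day 3. The largest were at day 14, with Chrng at 291 CPM against 0.374 in control, Myh3 at 440 against 3.46, Myh8 at 74.7 against 2.29 and Mymx at 62.2 against 0.479. In the same order these genes stood at 44.4, 87.5, 6.44 and 1.75 CPM at day 1. At day 3 they stood at 0.563, 2.19, 2.36 and 0.261 CPM, and at day 5 at 13.8, 112, 43.2 and 2.43 CPM.

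Markers of fibres and of other cells moved beside these genes, and their part in the results was not tested. The 8 myofibre markers summed to a mean of 223243 CPM in control and to 94507, 114528, 76584, 48597 and 41696 CPM at days 1, 3, 5, 7 and 14. All 8 fell at every day, although 1 rose at day 14 with library totals alone. The 8 endothelial markers, all of which fell at each day, summed to between 1889 and 1972 CPM in control libraries, 741 and 754 at day 1, 1065 and 1091 at day 3, 741 and 777 at day 5, 606 and 626 at day 7 and 666 and 685 at day 14. Their sum was thus highest in control and lowest at day 7. With library totals alone all 8 endothelial markers fell at days 1 and 5 and 5 fell at days 3 and 7. At day 14 on that scale 1 rose and 7 fell. Cdkn1c, also highest in control, stood at 95.3, 29.8, 38.1, 38.3, 81.4 and 41.7 CPM in control and at days 1, 3, 5, 7 and 14. The 10 markers of fibro-adipogenic progenitors and fibroblasts summed to between 8745 and 8821 CPM in control, fell to between 5474 and 5715 at day 3, where Peg3, Mest, Grb10 and Plagl1 were lowest, and reached 10545 to 10751 at day 14. Of the 10, 1 rose and 8 fell at day 3, and 5 rose and 4 fell at day 14. With library totals alone 3 rose and 4 fell at day 3, and all 10 rose at day 14. The 5 tendon markers ran from 657 to 672 CPM at day 5 and from 1688 to 1705 CPM at day 14, where Mest was highest and where 4 of the 5 rose and 1 fell. All 5 tendon markers rose at day 14 with library totals alone. The 7 satellite cell markers summed to between 105 and 110 CPM in control and to between 119 and 159 CPM in the denervated libraries, with no marker at 0 in any group. Single satellite cell markers were divided under TMM scaling: 2 rose and 4 fell at day 3 (median log2 −0.47), and at each other day as many rose as fell, 2 of 7 at days 1 and 14 and 3 of 7 at days 5 and 7. With library totals alone 5 rose and 1 fell at day 1, 2 rose and 2 fell at day 3, and 4 rose and 2 fell at day 5. On that scale 6 rose and 0 fell at day 7, and 5 rose and 0 fell at day 14. The 6 lymphocyte markers summed to between 92.5 and 97.4 CPM at day 1 and 104 and 116 at day 5, and to at most 1.37 CPM in every library of the other groups. At days 1 and 5 Dlk1 stood at 2.32 ± 0.294 and 8.96 ± 1.7 CPM, and Plagl1 at 12.7 ± 1.11 and 28.1 ± 0.581 CPM. The 5 adipocyte markers summed to between 97.1 and 102 CPM in control and 1047 and 1076 CPM at day 1, and all 5 rose at every day. The 7 macrophage markers ran from 554 CPM in control to 1489 CPM at day 5, the 7 pericyte and smooth muscle markers from 751 CPM at day 1 to 1272 CPM in control, the 6 Schwann cell markers from 52.2 CPM at day 14 to 207 CPM in control (although 4 rose and 1 fell at days 1 and 5, with a median log2 of 0.98 and 0.96), and the 5 erythroid markers from 187 CPM at day 3 to 2968 CPM at day 1.

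The genes closest in pattern to the other members, by the same measure over 24 libraries, were named by rule. For Grb10 they were Xirp2, a gene for an actin-binding protein of striated muscle (0.0781), and Pakap, a kinase anchoring gene with overlapping models of the same symbol (0.114). For Plagl1 they were Acsl4 (0.213) and Cpd (0.216), for Mest Fhl1, a LIM domain gene of muscle (0.277), and Angptl1 (0.284), and for Cdkn1c Shmt1 (0.292) and Fam217b (0.314). For Dlk1 the closest was Htra4 (0.35), a larger difference than for the closest gene of any other member. After Zim1, the gene nearest to Peg3 was Aspn, a matrix proteoglycan gene (0.39). Xirp2 stood at 344 ± 10.9 CPM in control, 200 ± 8.36 at day 3 and 453 ± 7.62 at day 14, and Aspn at 39.8 ± 6.42, 11.2 ± 0.951 and 109 ± 4.55 CPM.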

How the data were processed

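RNA of gastrocnemius was reverse-transcribed after oligo(dT) selection and sequenced on a NovaSeq6000, per the labels' protocols. The aligner, annotation, build and strand setting: not given in the sources used here. The authors deposited, per the file headers, an expected count and a TPM value for each of 21965 genes in 24 libraries. Of the expected counts, 7.01% were not whole. They were rounded, scaled by TMM and fitted in edgeR 4.0.16 (R 4.3.3) by quasi-likelihood over all 24 libraries. The filter filterByExpr left 14247 genes, over which p-values were adjusted by Benjamini-Hochberg (threshold 0.05). Each day was compared with control and with the day before it in the series. The fit was tested on simulated data. Identifiers were matched to GENCODE M21 (GRCm38), 21806 of 21965. Members and gene lists were chosen with earlier results of these data known. Of each list, the text names up to 4 genes with the largest absolute log2 change among passing genes whose mean CPM was at least 1 on the log2 scale, all tested genes in a member's cluster, and the 2 genes closest in pattern to each member, of which 1 gene is not reported here. Alternatives were DESeq2 1.42.0, its size factors, library totals alone, other filters, a replicate block, only the groups compared, leaving out each library and, chosen after seeing the data, TPM with limma 3.58.1 on a log2 scale. Within groups, no pair of libraries agreed within sampling noise (mean chi-square per gene 2.04 to 3.96 over 36 pairs).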

Additional observations from a re-analysis of the deposited data

Results flagged for a closer look

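Within each group of 4 libraries, a library was singled out where its gap to the nearest other library took more of the group's range than Dixon's 95% critical value allows. Of 72 groups tested over the 6 genes on both scales, 5 held such a library, and chance gives about 1 in 20. Dlk1 was low in control replicate 4 (6.39 CPM, the others 6.99 to 7.11) and in day 14 replicate 3 (1.45 CPM, the others 1.89 to 1.96). Cdkn1c was high in day 14 replicate 4 (45.5 CPM, the others 40.2 to 40.7). Grb10 was low in control replicate 2 (115 CPM, the others 121 to 122). Plagl1 was high in TPM in day 1 replicate 2 (7.5 TPM, the others 4.67 to 4.99), although its CPM there was 12.9, within the range of that day.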

How the results depend on the processing

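Counts of changed genes, both directions together, stayed within 1.5 times under every alternative run. The split into higher and lower did not, as with library totals alone it moved from 5428 and 5157 to 10051 and 1899 at day 1. Of the 30 changes of the 6 genes against control, all 30 kept direction and call with DESeq2, with its size factors, without a filter, with the CPM filter and with only the 2 groups compared. With library totals alone Mest at day 1 (0.44), Grb10 at day 1 (0.11) and Cdkn1c at day 7 (0.54) turned positive, Plagl1 at day 3 (−0.05) and Dlk1 at day 7 (−0.12) no longer passed, and Peg3 at day 5 (0.66) passed. With deposited TPM and limma, which has no composition scaling either, Mest at day 1 (0.41), Grb10 at day 1 (0.16), Cdkn1c at day 7 (0.69) and Plagl1 at day 3 (0.01) turned positive, Dlk1 at day 7 (−0.00) no longer passed and Peg3 at day 5 (0.72) passed. Leaving out 1 library moved Dlk1 at day 5 between 0.29 and 0.50 and Peg3 at day 5 between −0.01 and 0.04. The step of Cdkn1c from day 3 to day 5 was −0.01 or −0.02 without any 1 of 4 libraries (day 3 replicates 1 and 2, day 5 replicates 1 and 3), none passing, but it rose and passed with library totals alone (0.28) and with TPM (0.34). That of Grb10 from day 7 to day 14 was −0.01 with library totals and −0.04 with TPM, neither passing. Dlk1 rests on as few as 30 counts in a library, which limits its precision.

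With the replicate number as a block, all 54 member results kept their call, and 10577 genes were called at day 1 against 10585. Deviations of libraries with the same number correlated between −0.0779 and 0.0773 (60 pairs), and 8 of 24 libraries were closest to their own number, so the numbers were not taken as pairs.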

Other observations

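Some other imprinted genes had a high point at day 7, when Peg3 was also highest; Ndn, Magel2 and Peg10 were chosen after their values were seen. Ndn, which encodes necdin, a protein that restrains growth and supports muscle precursors, held 52.2, 58.4, 54.1 and 60.3 CPM at day 7. The control libraries ran from 14.6 to 17.3 CPM and those of day 14 from 28 to 30.9 CPM. It rose at day 7 by 1.80 ± 0.079 (log2, edgeR adjusted p = 4.4e-25). Magel2, a MAGE family gene 26748 bases from Ndn, had 113 counts over the 4 libraries of day 7 (1.16, 1.37, 1.48 and 1.6 CPM). It had none in control and at days 3 and 5, and 1 count in a single library at day 1 and at day 14. Against a floor of 3 counts over the control group (0.0625 CPM), day 7 was at least 22.3-fold higher. Peg10, a gene derived from a retrotransposon, ran from 8.31 to 10.6 CPM at day 7, from 3.13 to 4.67 CPM in control and from 4 to 5.14 CPM at day 14 (day 7 log2 1.34 ± 0.16, edgeR adjusted p = 3.6e-10).

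Nnat was high at 2 separate times. It held 18.8, 17.7, 19.4 and 20.7 CPM at day 1 and 11.4, 11.7, 12.4 and 13.5 CPM at day 14, while days 3, 5 and 7 ran from 0.612 to 3.13 CPM. Zdbf2 stood at 2.02 ± 0.213 CPM in control, between 3.08 and 5.77 CPM at days 1, 3 and 5, and at 15 ± 0.832 and 19.3 ± 1.8 CPM at days 7 and 14 (SD, n = 4).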
